A study of Mus musculus with 6 samples.

Results

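This account covers 39 listed genes of ribosome collision sensing, rescue of stalled ribosomes and messenger RNA decay, chosen by gene symbol in the platform annotation of a mouse array. Of these, 35 were measured, each by 1 probe set, out of 22206 probe sets in all. Pelo, Rack1, Upf3a and Upf3b were not analysed here. RNA came from HoxB8 cells, neutrophil progenitors kept immature by the homeobox factor Hoxb8. 3 arrays were from cells with the leukaemia-associated K313 form of C/EBPα (K313) and 3 from cells with wild-type C/EBPα (WT). Cells of both groups had spent 1 day in differentiation medium that held stem cell factor supernatant. The labels do not say how the C/EBPα forms were introduced, whether the cells keep their own Cebpa, whether a group is 1 clone, or whether replicates came from separate cultures, so a p-value here reflects how far these arrays scatter, and that scatter may be technical. The title of the series states that the K313 form acts through release of ribosome stalling; the comparison below asks whether transcripts of the machinery that handles stalled ribosomes differed between K313 and WT cells.

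When a ribosome stalls and the next one runs into it, the collided pair is sensed by kinases, marked by ubiquitin ligases and pulled apart. The unfinished protein is tagged and destroyed, while the messenger RNA can be silenced or degraded. Nonsense-mediated decay removes messenger RNAs on which translation ends too early, and decapping followed by digestion from the 5′ end is a shared last step of several decay routes. Most of these factors act as proteins that are present in all cells, and much of their control lies in modification and assembly, which an RNA array does not see. C/EBPα, encoded by Cebpa, is a transcription factor needed for granulocytes to form.

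Levels are the deposited log2 values, and a difference is K313 minus WT on that scale. A level of at most 5, about the median of each array (5.01 to 5.13), is treated as near background, and levels of different probe sets are not set against each other. Across all probe sets, Pearson's r was 0.995 to 0.996 among K313 arrays and 0.994 to 0.995 among WT arrays, and WT replicate 3 was closer to the K313 arrays (0.987 to 0.989) than WT replicates 1 and 2 were (0.983 to 0.986). The Y-linked gene Eif2s3y read 12.37, 12.09 and 12.24 in K313 arrays, against 3.11, 2.93 and 7.03 in WT arrays, with WT replicate 3 above the other WT arrays, and Uty showed the same order (12.37, 11.67 and 11.97 in K313, against 3.72, 3.78 and 6.81 in WT). Hoxb8 was at 8.34 ± 0.25 in K313 and 12.98 ± 0.52 in WT (SD, n = 3 each), and Cebpa at 14.07 ± 0.33 in K313 and 14.58 ± 0.25 in WT. Of 9 neutrophil progenitor markers, 4 were higher and 1 was lower in K313, and the mean log2 level of that list was 14.44 to 14.62 in K313 arrays and 13.87 to 13.97 in WT arrays. Of 8 basophil and mast cell markers, 1 was higher and 4 were lower (list means 11.49 to 11.89 in K313 and 12.05 to 12.27 in WT), with the defining receptor gene Fcer1a near background in both groups. Eosinophil markers were 3 lower of 5 (8.78 to 9.30 in K313 and 10.01 to 10.48 in WT, with Ccr3 near background). Monocyte and macrophage markers were 2 higher and 2 lower of 8 (7.12 to 7.27 in K313 and 6.95 to 7.16 in WT, with Klf4 and Ly86 near background). Erythroid and megakaryocyte markers were 2 lower of 5 (5.49 to 5.77 in K313 and 6.37 to 6.61 in WT, with Klf1 near background), B cell markers 2 lower of 4 (4.83 to 5.21 in K313 and 6.27 to 6.50 in WT, with Pax5 near background) and T cell markers 1 lower of 5 (3.93 to 4.07 in K313 and 4.22 to 4.48 in WT, with Cd3d, Cd3e, Cd8a and the marker that fell, Cd3g, near background by their means in both groups). In bulk RNA, fewer cells of a type and less RNA per cell cannot be told apart. Every K313 array also lay apart from every WT array in Eif2s3y, Uty and Hoxb8, so K313 minus WT cannot be tied to the C/EBPα form alone. The part that these differences play in the results below was not tested.

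The share of these transcripts that passed the test between the groups was near that of all probe sets, and was itself not tested. With limma, at a Benjamini-Hochberg adjusted p under 0.05 over the whole array, 2 of the 35 genes passed (5.71%), while 7.75% of all probe sets did, and 12.7% of the 8631 probe sets with a mean level above 7, where 31 of the 35 genes lie. Both were lower in K313: Map3k20, the kinase that relays collisions to stress signalling, and Trip4, a subunit of the complex that splits collided ribosomes, whose values were all near background. Trip4 therefore lies outside the set with a mean above 7. At that threshold 3.97% of all probe sets were lower and 3.77% higher, so 48.7% of the calls were higher, against 40.6% when arrays were shifted to a common median. None of the 35 was higher in K313 (limma; 0 also at an unadjusted p under 0.05, where 4 were lower, or 11.4%, beside 8.79% of all probe sets higher and 9.04% lower). The median difference over the 35 was -0.02 and over all probe sets 0.02. K313 and WT values did not overlap in 4 of the 35 genes (Map3k20, Trip4, Zfp598 and Hbs1l), a share of 11.4%, while 21.9% of all probe sets, and 30.9% of those with a mean above 7, did not overlap. Here too Trip4 is outside the set above 7. For the 33 genes that did not pass, differences ran from -0.49 to 0.30. Each of their 95% intervals (before adjustment) lay inside a 2-fold change either way, the lowest end at -0.98 for Rnf25 and the highest at 0.94 for Gtpbp2. Not passing itself favours such intervals. Passing or not, 94.3% of the 35 had one, beside 88.3% of all probe sets and 82% of those with a mean above 7. Smaller changes may have been missed: in simulated data, 12% of probe sets changed by 0.5 were recovered and 90% of those changed by 1. The simulation gave 163 calls, against 1720 in these arrays. Its adjusted threshold therefore asked for a smaller p than here, and its shares may not hold for these data.

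**Figure D1:**
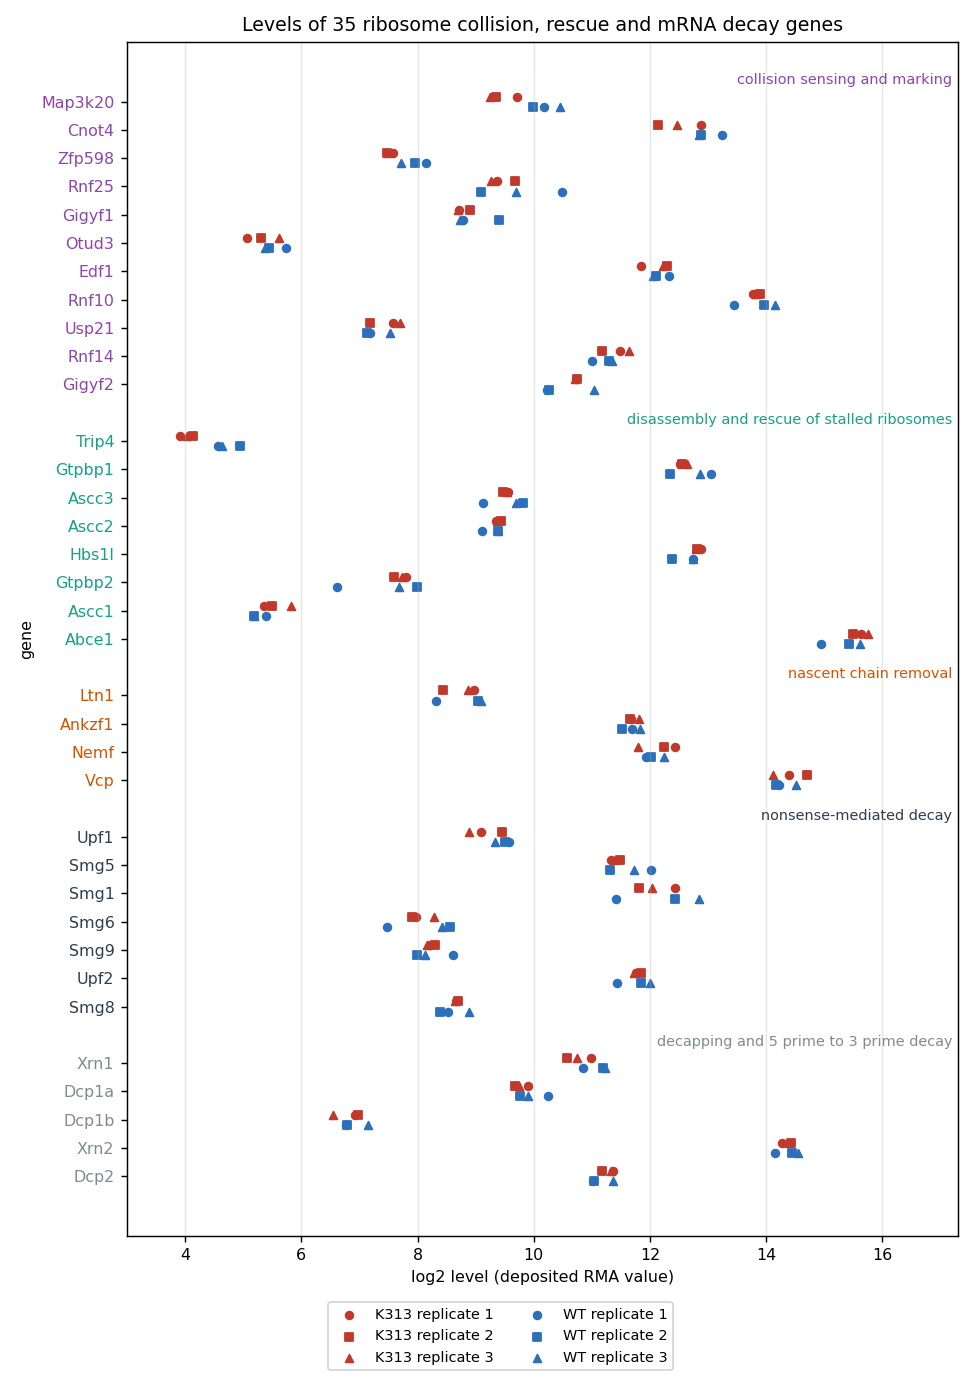
Log2 level (x axis, deposited value) of each of the 35 measured genes (rows, grouped by role and ordered by difference) in the 3 K313 arrays (red, upper) and the 3 WT arrays (blue, lower), with a marker shape for each replicate number. The red and blue points lie apart in Map3k20, Trip4, Zfp598 and Hbs1l and overlap in the other rows.

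**Figure D2:**
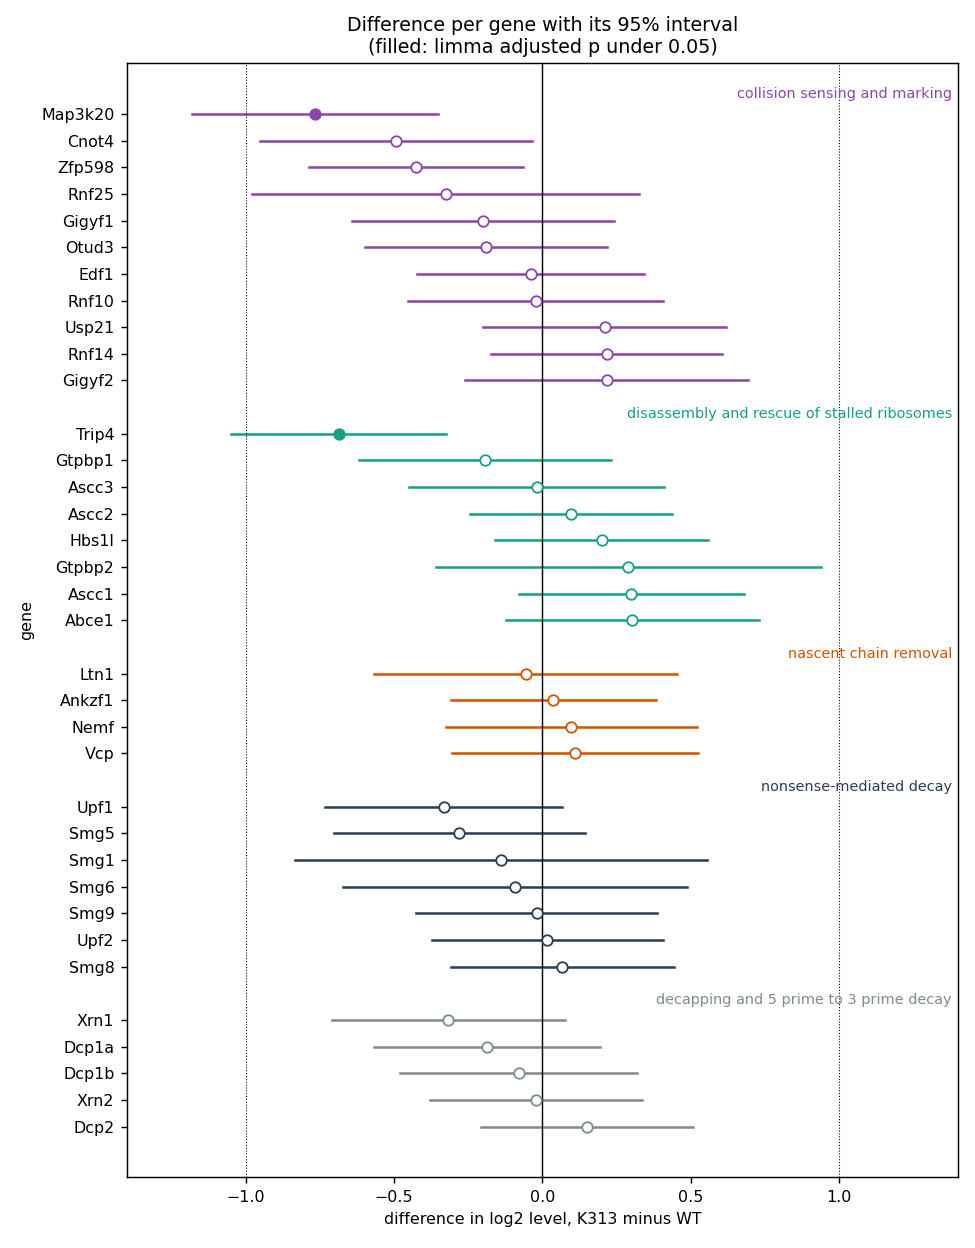
Difference in log2 level, K313 minus WT (x axis), for each of the 35 genes (rows) with its 95% interval before adjustment; filled points passed the limma adjusted threshold of 0.05 and dotted lines mark a 2-fold change. Map3k20 and Trip4 are the filled points, and the intervals of the other 33 genes stay between the dotted lines.

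Among the 11 measured genes of collision sensing and marking, 0 rose and 1 fell (9.09% called, beside 7.75% of all probe sets), and the median difference was -0.19. Map3k20, also called ZAK, is a mitogen-activated protein kinase kinase kinase that binds collided ribosomes and starts the ribotoxic stress response. It read 9.72, 9.35 and 9.25 in K313 replicates 1 to 3, against 10.18, 9.98 and 10.46 in WT replicates 1 to 3. Every K313 array was below every WT array. The difference was -0.77 ± 0.19 (SE, n = 3 per group; limma adjusted p = 0.0289), which is 0.588 of the WT level. The fall did not pass without WT replicate 1 (adjusted p = 0.069), WT replicate 3 (0.112), K313 replicate 2 (0.117) or K313 replicate 3 (0.122), or with ordinary variance (0.203), and the difference stayed between -0.91 and -0.64.

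Zfp598, the ubiquitin ligase that marks the small subunit of collided ribosomes, read 7.57, 7.47 and 7.49 in K313 arrays, against 8.15, 7.95 and 7.71 in WT arrays. The groups did not overlap, but the gap between the highest K313 value and the lowest WT value was smaller than the range of the WT values. The difference of -0.43 ± 0.16 did not pass (limma adjusted p = 0.184; 95% interval -0.79 to -0.07 before adjustment), nor did it under any of the 13 alternatives, where the adjusted p lay between 0.111 and 0.416.

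The bases before the annotated starts of these genes are shown because Map3k20 is the kinase that fell and Zfp598 the ligase that begins quality control. The sequences are RefSeq's, build GRCm38.p6, plus strand, 250 bases each, Map3k20 from chr2:72285387-72285636 and Zfp598 from chr17:24669437-24669686. Capitals would mark the exact ETS pattern CCGGAAG on either strand, which neither stretch holds. Other ETS-type sequences were not marked.
Map3k20: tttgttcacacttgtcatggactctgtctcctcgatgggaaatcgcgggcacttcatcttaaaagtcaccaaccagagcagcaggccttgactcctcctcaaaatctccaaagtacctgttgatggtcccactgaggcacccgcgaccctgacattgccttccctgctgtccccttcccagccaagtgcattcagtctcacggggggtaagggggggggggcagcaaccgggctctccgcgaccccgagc
Zfp598: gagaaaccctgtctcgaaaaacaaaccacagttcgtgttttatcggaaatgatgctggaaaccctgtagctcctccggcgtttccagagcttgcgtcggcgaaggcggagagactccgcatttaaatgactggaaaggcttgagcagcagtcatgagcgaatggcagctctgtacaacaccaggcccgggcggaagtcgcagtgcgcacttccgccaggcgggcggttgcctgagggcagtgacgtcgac

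The palindromic C/EBP site TTGCGCAA was found in 0 of 40 promoter windows of 37 of the listed genes (250 bases before to 50 after a start, both strands), and in 0.183% of all 32851 windows of that length. The composite C/EBP and ATF site TTGCATCA was in 0 of the 40 and in 0.895% of all. The loose C/EBP pattern TTNNGNAA, which includes the palindrome, was in 8 of the 40 windows (20%) and in 40.7% of all. The ETS pattern CCGGAAG, chosen after its matches were seen, was in 9 of the 40 (22.5%) and in 8.86% of all. These are matches of letters, and windows differ in base composition between genes.

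Cnot4, a ubiquitin ligase that works with the CCR4-NOT deadenylase, read 12.88, 12.14 and 12.47 in K313 arrays, against 13.24, 12.88 and 12.85 in WT arrays. The groups overlapped, since K313 replicate 1 was as high as WT replicate 2. Its difference was -0.49 ± 0.21 (limma adjusted p = 0.236). Edf1, which binds collided ribosomes and brings in translational repressors, read 11.85, 12.29 and 12.23 in K313 arrays, against 12.32, 12.11 and 12.06 in WT arrays. The values were mixed and the difference was -0.04 ± 0.17 (limma adjusted p = 0.948), with a 95% interval of -0.42 to 0.34.

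The other 7 measured genes of collision marking went either way, and none passed. Gigyf1 and Gigyf2, which silence translation of the stalled message together with the cap-binding protein Eif4e2, differed by -0.20 ± 0.20 and 0.22 ± 0.22. Among the ligases, Rnf10, which ubiquitinates small subunit proteins, differed by -0.02 ± 0.20, and Rnf14 and Rnf25, which act together on factors trapped in the ribosomal A site, by 0.22 ± 0.18 and -0.33 ± 0.30. The Rnf25 estimate has a wide error: it read 9.36, 9.68 and 9.26 in K313 arrays, against 10.49, 9.09 and 9.70 in WT arrays, and WT replicate 1 was the highest of all 6. The deubiquitinases Usp21 and Otud3, which remove marks from the small subunit, differed by 0.21 ± 0.19 and -0.19 ± 0.19.

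Among the 8 measured genes of ribosome disassembly and rescue, 0 rose and 1 fell (12.5% called, beside 7.75% of all probe sets), and the median difference was 0.15. Trip4, also called ASC-1, is part of the activating signal cointegrator complex, which uses the helicase Ascc3 to pull collided ribosomes apart. It read 3.91, 4.14 and 4.03 in K313 arrays, against 4.57, 4.94 and 4.63 in WT arrays. No K313 value reached a WT value, yet all 6 were below 5, near background. The difference was -0.69 ± 0.16 (limma adjusted p = 0.0257), and no fold is given because both groups were near background. The fall did not pass without WT replicate 2 (adjusted p = 0.0855), WT replicate 3 (0.0549), K313 replicate 1 (0.0943), K313 replicate 2 (0.0574) or K313 replicate 3 (0.0787), or with ordinary variance (0.121), and the difference stayed between -0.76 and -0.57.

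Trip4 lies head to head with the kinase gene Csnk1g1 in RefSeq's annotation, and the 92 bases between their starts are shown for that reason (RefSeq, build GRCm38.p6, chr9:65908876-65908967, minus strand). Capitals mark the 1 match to the ETS pattern CCGGAAG, here on the opposite strand.
Trip4: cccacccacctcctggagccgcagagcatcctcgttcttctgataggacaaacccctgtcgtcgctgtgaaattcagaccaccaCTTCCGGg
Csnk1g1, named because of this neighbourhood after its values were seen, was lower in K313 as well: it read 10.87, 10.51 and 10.62 in K313 arrays, against 11.47, 11.12 and 11.29 in WT arrays, without overlap, a difference of -0.63 ± 0.17 (limma adjusted p = 0.0466). That call is close to the threshold and was not followed through the alternatives.

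The other subunits of the complex did not pass. Ascc3, the helicase, read 9.56, 9.47 and 9.54 in K313 arrays, against 9.12, 9.82 and 9.69 in WT arrays. The K313 values lay within the WT range, and the difference was -0.02 ± 0.19 (limma adjusted p = 0.977). Ascc1 read 5.35, 5.50 and 5.82 in K313 arrays, against 5.40, 5.19 and 5.18 in WT arrays, just above background, with 1 WT value inside the K313 range. Its difference was 0.30 ± 0.17 (adjusted p = 0.425). Ascc2, which binds the ubiquitin chains on the stalled ribosome, differed by 0.10 ± 0.15.

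Hbs1l is the GTPase that brings the rescue factor Pelo to a stalled ribosome, and Abce1 is the ATPase that then splits the subunits. Hbs1l read 12.88, 12.81 and 12.79 in K313 arrays, against 12.75, 12.38 and 12.75 in WT arrays. All K313 values were above all WT values by a small margin, and the difference of 0.20 ± 0.16 did not pass (limma adjusted p = 0.617; 95% interval -0.16 to 0.56). Abce1 read 15.64, 15.50 and 15.75 in K313 arrays, against 14.94, 15.42 and 15.62 in WT arrays, which overlapped. Its difference was 0.30 ± 0.19 (adjusted p = 0.490). The paralogous GTPases Gtpbp1 and Gtpbp2, known in mouse for relieving stalled ribosomes in neurons, differed by -0.19 ± 0.19 and 0.29 ± 0.29. For Gtpbp2 the wide error came with WT replicate 1, which read 6.61 beside 7.99 and 7.68 in the other WT arrays.

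The 4 genes of nascent chain removal gave 0 calls (limma; 0 at an unadjusted p under 0.05), and their differences ran from -0.06 to 0.11. For so few genes, 0 is near the 7.75% of all probe sets that passed. Nemf, which senses the split large subunit with its peptide still attached, read 12.44, 12.25 and 11.80 in K313 arrays, against 11.94, 12.02 and 12.24 in WT arrays. Its K313 values spanned the WT values, with a difference of 0.10 ± 0.19 (adjusted p = 0.872). Ltn1, or listerin, is the ubiquitin ligase that tags the trapped peptide. It read 8.98, 8.44 and 8.87 in K313 arrays, against 8.32, 9.04 and 9.10 in WT arrays, a difference of -0.06 ± 0.23 (adjusted p = 0.946), with the K313 values inside the WT range. Vcp, the ATPase that extracts the tagged peptide, read 14.40, 14.71 and 14.12 in K313 arrays, against 14.22, 14.17 and 14.51 in WT arrays. These values overlapped too, with a difference of 0.11 ± 0.19 (adjusted p = 0.846). Ankzf1, which releases the peptide from its tRNA, differed by 0.04 ± 0.16.

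Nonsense-mediated decay genes gave 0 calls among 7 (limma; 0 at an unadjusted p under 0.05), with a median difference of -0.09. With 7.75% of all probe sets passing, 0 among 7 is near that share. Upf1, the helicase at the centre of this pathway, read 9.10, 9.45 and 8.88 in K313 arrays, against 9.58, 9.51 and 9.34 in WT arrays. K313 replicate 2 lay within the WT range, and the difference was -0.33 ± 0.18 (adjusted p = 0.390). Smg5, which helps bring decay enzymes to the marked message, read 11.33, 11.48 and 11.40 in K313 arrays, against 12.02, 11.31 and 11.72 in WT arrays. WT replicate 2 was the lowest of the 6, and the difference was -0.28 ± 0.19 (adjusted p = 0.529). Upf2, the bridge between Upf1 and the exon junction complex, differed by 0.02 ± 0.18. The kinase Smg1, which phosphorylates Upf1, differed by -0.14 ± 0.31, its regulators Smg8 and Smg9 by 0.07 ± 0.17 and -0.02 ± 0.18, and the endonuclease Smg6 by -0.09 ± 0.26.

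Decapping and 5′ to 3′ decay genes likewise gave 0 calls among 5 (limma; 0 at an unadjusted p under 0.05), again near the 7.75% of all probe sets. Xrn1, the cytoplasmic exonuclease that digests decapped messages, read 10.99, 10.58 and 10.74 in K313 arrays, against 10.84, 11.19 and 11.23 in WT arrays. K313 replicate 1 was above WT replicate 1, so the groups overlapped, and the difference was -0.32 ± 0.18 (adjusted p = 0.411). Its nuclear relative Xrn2 differed by -0.02 ± 0.16. The decapping enzyme Dcp2 differed by 0.15 ± 0.16 and its cofactors Dcp1a and Dcp1b by -0.19 ± 0.17 and -0.08 ± 0.18.

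The calls for Map3k20 and Trip4 were close to the threshold. The plot of the settings sets both beside Zfp598, the gene with the next smallest p. Without WT replicate 3, the WT array nearest to the K313 arrays, the differences were -0.64 for Map3k20 and -0.73 for Trip4, and neither passed.

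**Figure D3:**
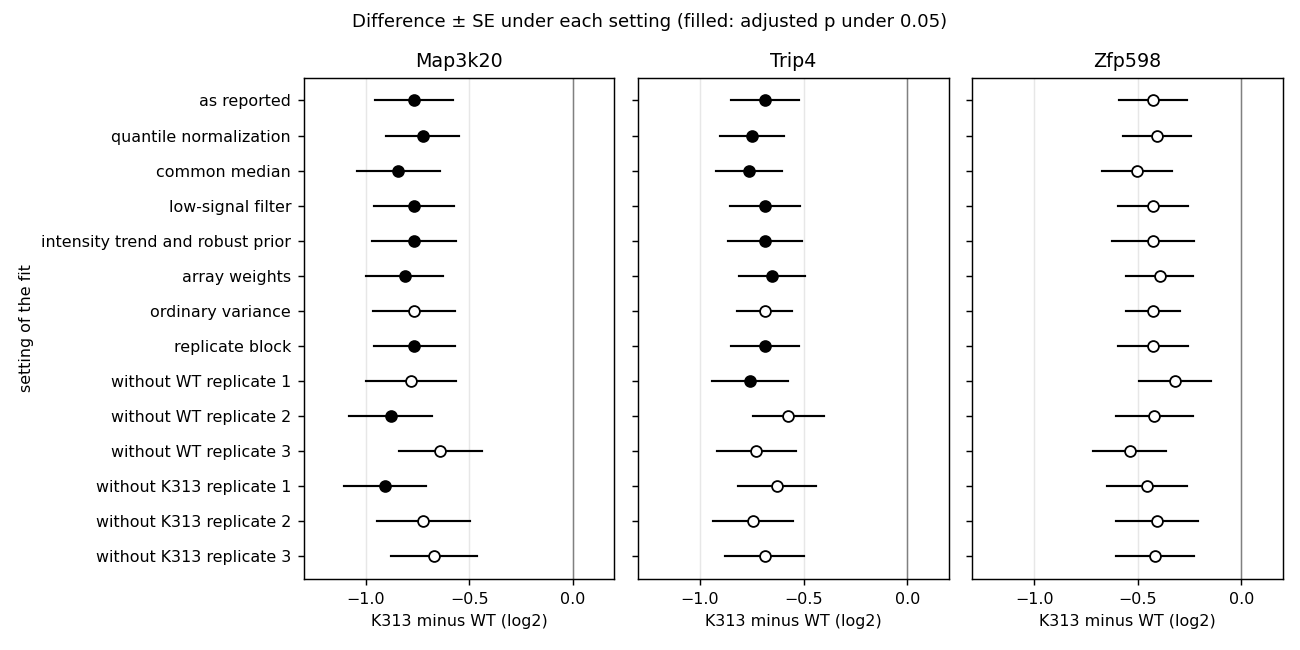
Difference in log2 level, K313 minus WT, with its SE (x axis), for Map3k20, Trip4 and Zfp598 under the reported fit and each of the 13 alternatives (rows); filled points had a limma adjusted p under 0.05, except in the ordinary variance row, where p comes from the unshrunken variance. All points lie left of 0; those of Map3k20 run from -0.91 to -0.64, those of Trip4 from -0.76 to -0.57, and those of Zfp598, none of them filled, from -0.54 to -0.32.

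The genes varied more among WT arrays than among K313 arrays. The median SD was 0.12 in K313 and 0.22 in WT, and the WT SD was the larger in 24 of the 35 genes (68.6%), compared with 53.8% of all probe sets and 60.8% of the 8631 probe sets with a mean above 7. Over all probe sets the median SD was 0.19 in K313 and 0.20 in WT. Over those with a mean above 7 it was 0.17 in K313 and 0.22 in WT. In the other pathway lists described below it was 0.13 in K313 and 0.21 in WT. The WT SD was the larger in 66 of their 97 probe sets (68%), so the larger WT spread was not particular to the 35 genes. The widest WT spread was in Smg1, which read 12.43, 11.82 and 12.04 in K313 arrays, against 11.42, 12.44 and 12.85 in WT arrays, with WT replicate 1 the lowest of the 6. WT replicate 1 was the lowest WT array in 17 of the 35 genes (48.6%), compared with 32.6% of all probe sets. The larger WT spread was in 7 of 8 rescue genes and 6 of 7 nonsense-mediated decay genes, but in 5 of 11 collision sensing genes, and Cnot4, Nemf and Vcp varied more among K313 arrays. Each SD rests on 3 arrays, and no test of the difference in spread was made.

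**Figure D4:**
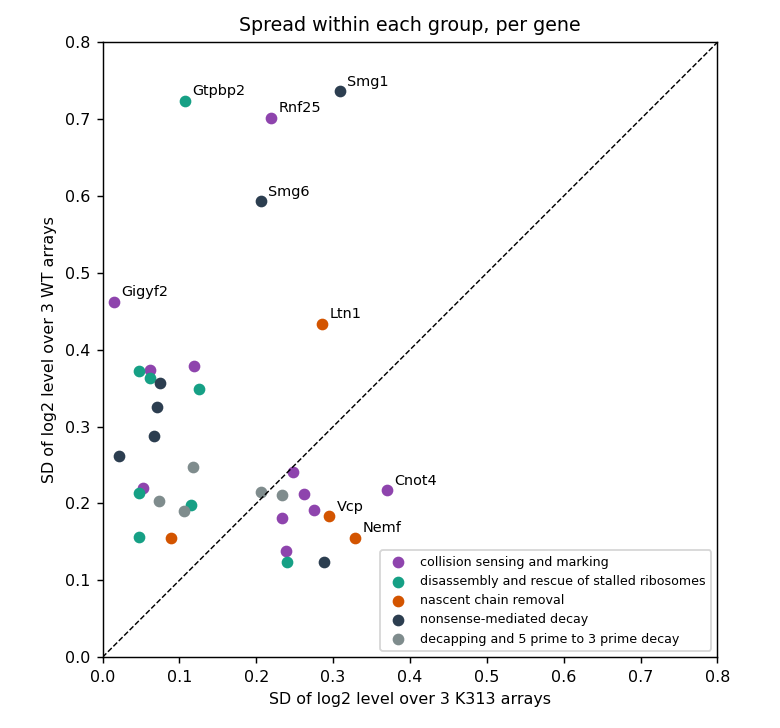
SD of the log2 level over the 3 K313 arrays (x axis) against that over the 3 WT arrays (y axis), 1 point per gene, coloured by role, with a dashed line of equal SD. 24 of the 35 points lie above the line, with Smg1, Gtpbp2, Rnf25 and Smg6 the farthest up.

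Around these genes, 7 lists of other pathway genes (106 listed, 96 measured by 97 probe sets) gave 2 higher and 8 lower in K313, or 10.3% of the probe sets. That share lay above the 7.75% of all probe sets and below the 12.7% of those with a mean above 7, where 84 of the 97 lie. The calls were unevenly placed. Of 9 factors that act on AU-rich or stem-loop elements in messages, 0 rose and 4 fell, with a median difference of -0.38. Zfp36l2, a zinc finger protein that binds AU-rich elements, read 14.70, 14.57 and 14.55 in K313 arrays, against 15.43, 15.44 and 15.34 in WT arrays. The groups lay well apart, with a difference of -0.80 ± 0.15 (limma adjusted p = 0.00562), and the fall passed under all 13 alternatives (adjusted p from 0.000465 to 0.0306). Its relatives Zfp36l1 (-1.03 ± 0.24, adjusted p = 0.0225) and Zfp36, or tristetraprolin (-0.78 ± 0.18, 0.0225), fell as well, as did the endonuclease Zc3h12a, or regnase-1 (-0.97 ± 0.23, 0.0231), each without overlap between the groups. Zfp36l1 passed in 7 of 13 alternatives, Zfp36 in 8 and Zc3h12a in 9; all 3 calls were lost with ordinary variance. The Zfp36l1 call was also lost when any K313 replicate was left out (0.0626 for replicate 1, 0.0999 for replicate 2 and 0.0581 for replicate 3), and when WT replicate 1 (0.0804) or 2 (0.0769) was. That of Zfp36 was lost after removal of K313 replicate 2 (0.103), K313 replicate 3 (0.0631), WT replicate 1 (0.0719) or WT replicate 3 (0.0775), and that of Zc3h12a without K313 replicate 1 (0.0807), K313 replicate 2 (0.0905) or K313 replicate 3 (0.0521). The remaining 5, Elavl1, Hnrnpd, Khsrp, Rc3h1 and Rc3h2, did not pass.

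The integrated and ribotoxic stress arm, which lies downstream of stalled ribosomes, gave 1 higher and 2 lower among 18 probe sets, with a median difference of 0.00. Impact, an inhibitor of the stall-sensing kinase Gcn2 that competes for its activator Gcn1, read 9.14, 9.08 and 9.50 in K313 arrays, against 10.09, 10.56 and 10.51 in WT arrays. The groups were well apart, with a difference of -1.15 ± 0.19 (limma adjusted p = 0.00243), and the fall passed in 12 of 13 alternatives, the exception being ordinary variance (0.0995). Eif2ak4, which encodes Gcn2, differed by -0.40 ± 0.25 (adjusted p = 0.468) and Atf4, the transcription factor whose translation this arm raises, by 0.24 ± 0.17 (adjusted p = 0.543). Among its usual targets, the asparagine synthetase gene Asns rose: it read 14.93, 14.98 and 15.11 in K313 arrays, against 14.52, 13.73 and 14.35 in WT arrays, a difference of 0.81 ± 0.21 (adjusted p = 0.0366). The call for Asns was lost with a common median (0.0638), with ordinary variance (0.262) and without WT replicate 2 (0.088), WT replicate 3 (0.0617), K313 replicate 1 (0.0804), K313 replicate 2 (0.106) or K313 replicate 3 (0.134). Ddit3, the stress factor also called CHOP, went the other way, with 1 probe set at -0.99 ± 0.24 (adjusted p = 0.0292) and the other at -0.60 ± 0.18 (0.0729). The first Ddit3 probe set missed the threshold after removal of K313 replicate 1 (0.0707), K313 replicate 2 (0.0517), WT replicate 1 (0.0853) or WT replicate 2 (0.0941), and under ordinary variance (0.289) or quantile normalization (0.0527). Atf3 (0.36 ± 0.15), Chac1 (0.38 ± 0.30), Trib3 (0.17 ± 0.16), Sesn2 (0.01 ± 0.16) and Ppp1r15a (-0.01 ± 0.17) did not pass. Of these, Chac1, Sesn2 and Ppp1r15a were near background in both groups. Downstream of Map3k20, the kinase gene Map2k6 differed by 0.63 ± 0.19 (limma adjusted p = 0.080), the p38 kinase gene Mapk14 by 0.07 ± 0.17 (0.896) and the JNK gene Mapk8 by -0.69 ± 0.27 (0.204). Map2k3 (-0.25 ± 0.18, 0.561), Map2k4 (0.13 ± 0.16, 0.773) and Mapk9 (-0.06 ± 0.19, 0.921) differed less than Map2k6 and Mapk8, and none of these kinase genes passed. The groups did not overlap in Map2k6 and Mapk8, which went opposite ways. Over this list 38.9% of probe sets did not overlap, beside 21.9% of all and 30.9% of those with a mean above 7.

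Deadenylation factors gave 1 higher and 1 lower among 16. Btg1, which links deadenylases to messages and restrains proliferation, read 10.13, 9.32 and 9.72 in K313 arrays, against 8.82, 9.00 and 8.91 in WT arrays. That is a rise of 0.81 ± 0.20 (limma adjusted p = 0.0327) that was lost in 8 of the 13 alternatives, among them the removal of K313 replicate 1 (0.11) or 3 (0.102) and of any WT replicate (0.10 for replicate 1, 0.0599 for replicate 2 and 0.0893 for replicate 3). Tob2, a relative with a similar role, read 7.57, 7.47 and 7.37 in K313 arrays, against 8.73, 7.90 and 8.40 in WT arrays. It fell by 0.87 ± 0.21 (adjusted p = 0.0250), a call lost in 6 of the 13, with ordinary variance (0.234) and without WT replicate 1 (0.0839), WT replicate 3 (0.0824), K313 replicate 1 (0.0568), K313 replicate 2 (0.0842) or K313 replicate 3 (0.101). Lsm14b, an RNA-binding protein of the decapping machinery, was the 1 of 15 other decapping factors to fall (-0.66 ± 0.18, adjusted p = 0.0434), and that call was lost in 9 of the 13, including the removal of any array but K313 replicate 3 (0.0939 to 0.151).

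The lists closest in function to the rescue genes gave no calls, while 7.75% of all probe sets passed. At that share, lists this short would give few calls or none. Of 17 other rescue, quality control and termination factors, among them the termination factors Etf1 and Gspt1, 0 passed (limma; 0 at an unadjusted p under 0.05), with a median difference of 0.17. Of 7 other nonsense-mediated decay and exon junction factors 0 passed (0 at an unadjusted p under 0.05), and of 15 exosome and Ski complex genes 0 passed (1 higher at an unadjusted p under 0.05). Of 64 cytosolic ribosomal protein genes 0 passed (2 higher at an unadjusted p under 0.05), with a median difference of 0.03.

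**Figure D5:**
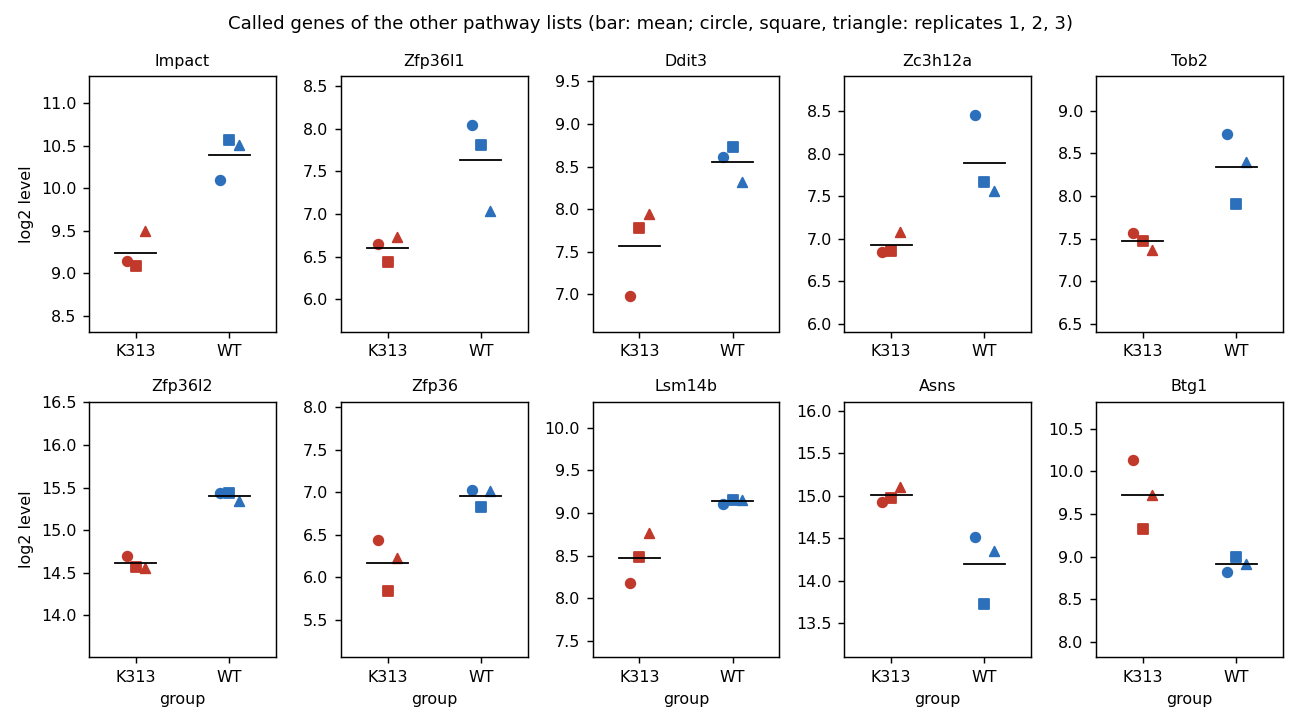
Log2 level (y axis, 3 log2 units in every panel) of the 10 called genes of the other pathway lists in K313 arrays (red, left) and WT arrays (blue, right), 1 marker shape per replicate number and a bar at each mean. In the 8 genes from Impact to Lsm14b the K313 arrays are lower, and in Asns and Btg1 higher, without overlap between the groups in any panel.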

How the data were processed

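Total RNA of 6 samples was hybridised to Affymetrix Mouse Clariom S arrays. The deposited values are log2 expression values with 2 decimals, from 2.21 to 18.59, made by the authors with RMA and the Transcriptome Analysis Console, per the submitters' processing notes; versions are not given in the sources used here. RMA equalises the arrays, which hides any shift in RNA content of the cells, and it compresses folds near background. Precision is limited by the 3 arrays of each group: the median SE of a difference was 0.18.

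Probe sets were named from the platform annotation (19572 of 22206 have 1 symbol). List genes were matched by symbol, older symbol or gene identifier. All 22206 probe sets entered 1 fit (limma 3.58.1, R 4.3.3; lmFit with group as the only term, eBayes, two-sided, Benjamini-Hochberg adjustment over all, threshold 0.05). Every adjusted p comes from this fit unless an alternative is named. Errors of a difference are SE. The fit was tested on simulated data with 50 changed probe sets at each size. The genes, lists and tests were chosen with earlier results of these data known. All 6 values are given for genes past the threshold, the next 8 by p and a core set, and at most 4 called genes per other list. The 13 alternatives are those in the plot of the settings. Same-numbered K313 and WT arrays did not deviate from their group means together (r = -0.061, 0.029 and -0.062), so the numbers were not treated as pairs. Slides and scan dates are not in the labels and were not tested.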

Additional observations from a re-analysis of the deposited data

How the results depend on the processing

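The count of the 35 genes lower in K313 was 2 with quantile normalization, array weights, an intensity trend with robust prior, the low-signal filter, a common median and the replicate block, 0 with ordinary variance, and 0 to 1 when 1 array was left out. The count higher stayed at 0 in all 13 alternatives. The median difference over the 35 genes was -0.02, -0.10 with a common median (where that of all probe sets was -0.06), and between -0.08 and 0.06 when 1 array was left out. Of the other pathway genes, 8 were lower, but 2 with ordinary variance and 2 to 5 when 1 array was left out, and 2 were higher, but 0 with a common median, 0 with ordinary variance, 1 with the replicate block and 0 to 1 when 1 array was left out. Of all probe sets 1720 passed, 496 with ordinary variance, 1546 with the replicate block and 1228 to 1465 when 1 array was left out. Among the named genes followed through the alternatives, the replicate block lost Btg1 (adjusted p = 0.0536) and Lsm14b (0.0626) and no other. The causes of these losses were not tested, except that leaving out an array leaves fewer samples. No gene followed in this way that passed changed sign. Transcripts near background, Trip4 among them, limit what signal over background can show.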
